A study of Mus musculus with 10 samples.

Results

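The peroxiredoxins, thioredoxins and thioredoxin reductases were followed here through pancreatic tumors of mice that drank plain or sugared water. The set was made of 10 genes, Prdx1 to Prdx6, Txn1, Txn2, Txnrd1 and Txnrd2, found by matching the mouse Ensembl identifiers of the table, without their version numbers, to these symbols. They were 10 of 55359 genes in the table, and all 10 were among the 24560 genes tested. RNA was sequenced from 10 KPC orthotopic tumors, grown in the pancreas of immunocompetent C57BL/6 mice (C57BL/6 J in the study's methods) from K8484 cells, a single murine line with a Pdx1-Cre transgene. Cells were injected at 10 weeks of age. The 5 CTRL mice drank regular water, and the 5 D30 mice drank water with 30% dextrose, for 14 days, so that tumors under raised glucose could be compared with normoglycemic ones. The titles call the tumors PDX, although the stated source is the KPC K8484 line.

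Values are normalized counts, that is, reads of a gene divided by 1 size factor per tumor, with 29192261 to 42122304 recovered reads per tumor behind them. Tumors are named by their column in the table, N for CTRL and T for D30, because columns could not be tied to single animals. Genes were compared by limma's moderated test on log2(normalized count + 1), and a gene was called at an adjusted p under 0.05. The ductal keratins Krt8, Krt18 and Krt19 were at 44919.6 normalized counts or more in every tumor, but Epcam, a defining epithelial marker, was at most 191 normalized counts and at 0 in at least 1 tumor. D30 tumor T4 stood apart. It held Y-linked transcripts at a summed level of 973 normalized counts, against 0 in the other tumors, and its short transcripts were high. D30 tumor T5 had the fewest genes with a read, 20482, and a summed erythroid marker level of 188041 normalized counts against 4148 to 12422 elsewhere. Many results that turn on T4 or T5 are also given without them.

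Peroxiredoxins remove hydrogen peroxide, organic peroxides and peroxynitrite with a reactive cysteine. The oxidized cysteine of most of them is restored by thioredoxin, thioredoxin by a thioredoxin reductase, and the reductase by NADPH. Prdx1, Prdx2, Txn1 and Txnrd1 work mainly in the cytosol, Prdx3, Txn2 and Txnrd2 in mitochondria, Prdx4 in the secretory pathway, and Prdx5 in several compartments. Prdx6 differs from the rest, as it keeps a single catalytic cysteine that is restored with glutathione, and it also has phospholipase activity.

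The codons for these reactive residues are shown because they carry the chemistry that joins the 10 genes. Each run is 30 bases of coding sequence, 5′ to 3′, from the principal transcript in GENCODE M21 (GRCm38). For the peroxiredoxins the capitals mark the codon of the catalytic cysteine.
Prdx1: taccctcttgactttacttttgtgTGTccc
Prdx2: tacccactggacttcacttttgttTGCccc
Prdx3: taccctttggatttcacatttgtgTGTcct
Prdx4: tacccactggatttcacctttgtgTGTcca
Prdx5: gtccctggggcatttacacctggcTGTtct
Prdx6: cacccacgggactttaccccagtgTGCacc
They were found as the only in-frame place in each of the 6 genes where a proline codon is followed, after 3 codons, by a threonine codon and, after 2 more, by a cysteine codon. The capital codon was number 52 of 200 in Prdx1 (chr4:116691823-116691825), 51 of 199 in Prdx2 (chr8:84970483-84970485), 109 of 258 in Prdx3 (chr19:60870127-60870129), 127 of 275 in Prdx4 (chrX:155332460-155332462), 96 of 211 in Prdx5 (chr19:6907988-6907990) and 47 of 225 in Prdx6 (chr1:161247368-161247370). It lay in exon 3 of Prdx1, Prdx2 and Prdx4, in exon 4 of Prdx3 and in exon 2 of Prdx5 and Prdx6. Prdx3, Prdx4, Prdx5 and Prdx6 lie on the minus strand, and their runs are shown in the direction of the transcript.

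In the thioredoxins the capitals mark both cysteine codons of the active site, and in the reductases they mark the in-frame TGA that is read as selenocysteine just before the end of the protein.
Txn1: gctacgtggTGTggacctTGCaaaatgatc
Txn2: gcacagtggTGTggccccTGCaagatccta
Txnrd1: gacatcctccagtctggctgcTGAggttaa
Txnrd2: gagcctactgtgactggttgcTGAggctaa
The second cysteine codon of the pair was number 35 of 106 in Txn1 (chr4:57951821-57951823, minus strand, exon 2 of 5) and 93 of 167 in Txn2 (chr15:77924651-77924653, minus strand, exon 2 of 3) and both pairs lay in codons for tryptophan, cysteine, glycine, proline and cysteine. The TGA was codon 498 of 500 in Txnrd1 (chr10:82896037-82896039, exon 14 of 14) and codon 526 of 528 in Txnrd2 (chr16:18477772-18477774, exon 17 of 17).

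No member of the set passed the test across all genes. Of 24560 genes tested, 2.76% were called in either direction, against 0 of the 10 members with limma. An unadjusted p under 0.05 was met by 3 members, Prdx5, Prdx6 and Txn2, each higher in D30 tumors, against 17.3% of all genes in either direction. In all, 7 members had a positive and 3 a negative log2 fold change (D30 over CTRL), and the median was 0.20, beside -0.065 over all tested genes. The groups did not overlap for 1 member, Prdx6, against 6.19% of all genes in either direction and 2.87% in the direction of higher D30 values. DESeq2 on the recovered reads called 2 members, Prdx6 and Prdx5, where 8.52% of genes were called, and edgeR with TMM called Prdx6 alone, where 4.13% were.

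**Figure D1:**
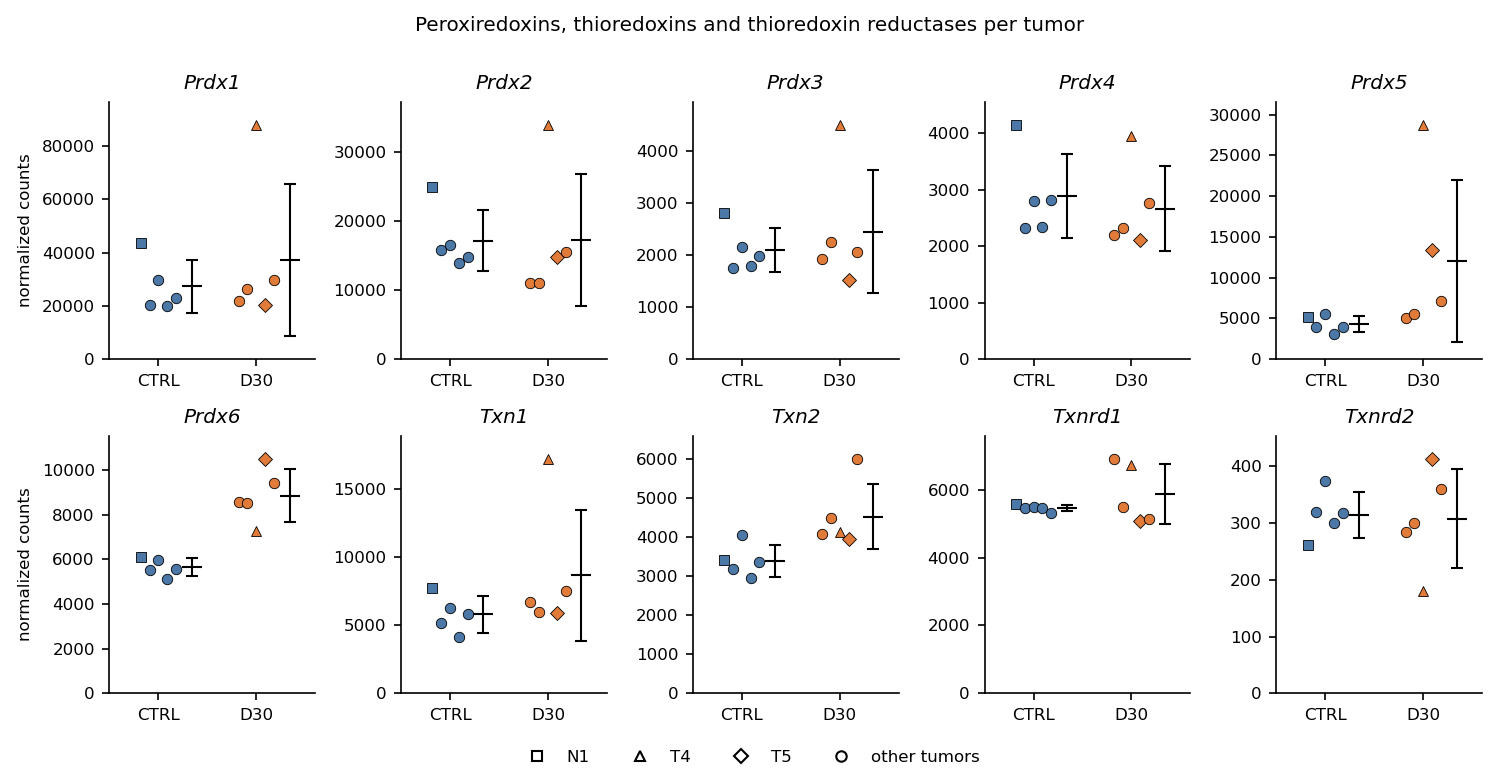
Normalized counts of the 10 members (vertical axes, each from 0) in every CTRL (blue) and D30 (orange) tumor; points are tumors, squares mark N1, triangles T4 and diamonds T5, and the bars give the mean ± SD of 5 tumors. Prdx6 was at 7270.4 or more in every D30 tumor and at 6110.1 or less in every CTRL tumor, while T4 was the highest tumor for Prdx1, Prdx2, Prdx3, Prdx5 and Txn1.

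Prdx6, the enzyme with a single catalytic cysteine, showed the clearest separation. Its normalized counts in CTRL tumors were 6110.1 (N1), 5538 (N2), 5998 (N4), 5105 (N5) and 5574 (N6). In D30 tumors they were 8557 (T1), 8528 (T2), 7270.4 (T4), 10490.1 (T5) and 9444 (T7). The lowest D30 tumor, T4, lay above the highest CTRL tumor, N1, so that the groups did not touch. Means were 5665 ± 402 and 8858 ± 1197 (SD, n = 5 each), a 1.56-fold difference on the log2(normalized count + 1) scale with a 95% confidence interval from 1.22 to 1.98. On the log2 scale this was 0.64 (standard error, SE, of 0.16, limma), with an unadjusted p of 0.00159 and an adjusted p of 0.0538, just short of a call. Prdx6 was called in 8 of 22 other settings, with adjusted p from 0.00255 to 0.207 and a positive fold change in all 22. Besides DESeq2 and edgeR with TMM, it was called by edgeR with DESeq2's size factors, where 4.08% of all genes were called, and by limma with a minimum mean of 10 normalized counts, where 3.96% were. Without T4 its log2 fold change was 0.71 (adjusted p = 0.00745, limma), where 6.43% of all genes were called. It was also called without N1 and T4, where 6.49% of genes were, and without T4 and T5, where 9.97% were. Leaving out any tumor other than T4 gave no call. With tumors scaled by library size it was 0.41 (adjusted p = 0.207, limma), and since the median of all genes then moved to -0.27, Prdx6 stood 0.68 above that median, beside 0.70 above it with the deposited scaling.

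Most markers of ductal epithelium ran in the same direction as Prdx6, and so did those of some other cell types. The summed level of 8 ductal epithelium markers was 224793 to 355325 normalized counts in CTRL and 377665 to 500302 in D30 tumors, with 7 of 8 higher and 0 of 8 called. Epcam alone had a negative fold change (log2 fold change -3.17, unadjusted p = 0.00507, limma), with 0 counts in at least 1 tumor. Fold changes were also positive for 8 of 8 neutrophil and 4 of 4 skeletal muscle markers tested. They were positive for 4 of 6 mesothelium and 5 of 7 erythroid markers tested. None of these was called, and 1 in each list was at 0 in at least 1 tumor. The neutrophil sums were 679 to 3337 normalized counts in CTRL and 825 to 16498 in D30 tumors. All 8 fibroblast markers had negative fold changes, none of them called and none at 0 in any tumor, and their sums were 77452 to 137709 in CTRL and 28178 to 103854 in D30 tumors. Of the 8 endothelium markers 6 had negative fold changes and 1, Cdh5, was called, none was at 0, and the sums were 11988 to 19386 in CTRL and 6936 to 10786 in D30 tumors. Fold changes were also negative for 7 of 8 macrophage markers, of which Csf1r was called, for 8 of 8 T cell markers, none called and 2 at 0 in at least 1 tumor, and for 8 of 8 islet markers, 4 of them called and all 8 at 0 in at least 1 tumor. The summed levels were 32503 to 63715 in CTRL and 17211 to 74717 in D30 tumors for macrophage, 326 to 679.6 and 240.4 to 345 for T cell, and 17.7 to 1510.2 and 0 to 83.6 for islet markers. An unadjusted p under 0.05 (limma, either direction) was met by 8 of 8 ductal epithelium, 6 of 8 fibroblast and 6 of 8 islet markers. It was met by 4 of 8 macrophage, 3 of 8 endothelium and 2 of 8 T cell markers, and by 17.3% of all genes. Among neutrophil markers 4 of 8 met it, as did 2 of 4 skeletal muscle, 3 of 6 mesothelium and 0 of 7 erythroid markers. In these bulk samples a change in the share of a cell type cannot be told from a change in RNA per cell, and the part of cell composition in the Prdx6 result was not tested.

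The genes whose pattern over the 10 tumors was most like that of Prdx6 were Nadk2, Pdia6 and Thap4, out of 12215 genes whose mean reached 100 normalized counts. Likeness was the root mean square difference of centred log2 values, 0.115 for Nadk2, 0.124 for Pdia6 and 0.128 for Thap4. Nadk2, the mitochondrial NAD kinase that makes NADP, was at 1145 to 1328 normalized counts in CTRL and 1471 to 2248 in D30 tumors. Pdia6, a thioredoxin-domain isomerase of the endoplasmic reticulum, was at 7550.5 to 9443 in CTRL and 10873 to 13638 in D30 tumors. Thap4 was at 750.4 to 861 in CTRL and 1103 to 1549 in D30 tumors. None of the 3 passed the test (adjusted p = 0.147, 0.0989 and 0.0651 in this order, limma). Among the members Txn2 came closest to Prdx6, with a difference of 0.225, and Prdx5 was farthest, with 0.775.

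Prdx1 and Prdx2 are the abundant cytosolic peroxiredoxins, and neither differed between the groups beyond the spread of the tumors. Prdx1 was at 43676 (N1), 20415 (N2), 29651 (N4), 20008 (N5) and 22797 (N6) normalized counts in CTRL tumors. Its D30 values were 22024 (T1), 26393 (T2), 87887 (T4), 20225 (T5) and 29874 (T7). Apart from T4, every D30 value lay inside the CTRL range. The log2 fold change of Prdx1 was 0.27 (95% confidence interval -0.54 to 1.08, adjusted p = 0.762, limma), and without T4 it was -0.10 (adjusted p = 0.843, limma).

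Prdx2, which is also abundant in red blood cells, was at 24909 (N1), 15771 (N2), 16558 (N4), 13869.6 (N5) and 14745 (N6) normalized counts in CTRL tumors. The D30 tumors had 10972 (T1), 11084 (T2), 33915 (T4), 14847 (T5) and 15501 (T7). T1 and T2 were below every CTRL tumor and T4 above all of them. T5, the tumor with the high erythroid markers, was inside the CTRL range. The log2 fold change was -0.10 (95% confidence interval -0.74 to 0.55, adjusted p = 0.903, limma), and -0.38 without T4 (adjusted p = 0.27, limma). Prdx2 overlaps Junb and Rnaseh2a on the opposite strand. The libraries were strand-specific, but whether reads were counted by strand is not given in the sources used here, and Junb alone held 10392 to 37551 normalized counts, so that the Prdx2 values are uncertain to that extent.

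Prdx3, the mitochondrial peroxiredoxin, was at 1762 to 2814 normalized counts in CTRL tumors, with the highest value in N1. Among D30 tumors it was at 1922 (T1), 2261 (T2), 4505 (T4), 1519 (T5) and 2062 (T7). Only T4 was above and only T5 below the CTRL range. Its log2 fold change was 0.14 (95% confidence interval -0.44 to 0.71, adjusted p = 0.841, limma), and it turned to -0.11 without T4 and to -0.088 with library-size scaling.

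Prdx4, which oxidizes protein disulfide isomerases in the endoplasmic reticulum with hydrogen peroxide, was at 4148 (N1), 2323 (N2), 2794 (N4), 2343 (N5) and 2819 (N6) normalized counts in CTRL tumors. Its D30 values were 2204 (T1), 2323 (T2), 3949.8 (T4), 2106 (T5) and 2763 (T7). N1 and T4 were the high tumors of their groups. The 9 markers of acinar cells, which are rich in endoplasmic reticulum, summed to 30359.5 normalized counts in N2 and 65498 in N6, against 165 to 6559 elsewhere. None of the 9 was called by limma, 6 of them were at 0 in at least 1 tumor, and their part in the Prdx4 values was not tested. For Prdx4 the log2 fold change was -0.12 (95% confidence interval -0.60 to 0.37, adjusted p = 0.835, limma), and 0.020 without N1.

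Prdx5, which reduces peroxides in mitochondria, peroxisomes and cytosol, had the largest fold change of the members and also a wide spread. Its normalized counts in CTRL tumors were 5121 (N1), 3935 (N2), 5550.4 (N4), 3119.7 (N5) and 3919.6 (N6). In D30 tumors they were 5102 (T1), 5558 (T2), 28731 (T4), 13429.7 (T5) and 7149.8 (T7). The groups overlapped, since T1 was below N1 and N4, while T4 and T5 were far above every CTRL tumor. Means were 4329 ± 988 and 11994 ± 9932 (SD, n = 5 each). On the log2 scale the difference was 1.17 (SE 0.409, adjusted p = 0.16, limma), 0.77 without T4 (adjusted p = 0.103, limma), 1.04 without T5 (adjusted p = 0.245, limma) and 0.47 without both (adjusted p = 0.154, limma). Only DESeq2 called it, at a log2 fold change of 1.47 (adjusted p = 0.0165). The fold change was positive in all 22 other settings, from 0.47 to 1.49. Besides the erythroid markers, T5 had the highest summed level of the 8 neutrophil markers, 16498 normalized counts, and of the 6 mesothelium markers, 98391, of which Msln alone made up 97050.5. Msln was at 28328.5 or more in every tumor. The other mesothelium markers were divided. Wt1 and Upk1b were highest in T5, but Upk3b was highest in T7 (569 against 159 in T5). Krt14 was highest in T1 (1175 against 635 in T5), and Lrrn4 was at 0 in T5. None of these markers was called, and Ly6g and Lrrn4 were at 0 in at least 1 tumor. The part of the cells that hold these transcripts in the Prdx5 values was not tested. Prdx5 overlaps Trmt112 on the opposite strand, which held 1932 to 3522 normalized counts, and the part of such reads in the Prdx5 values was not tested.

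**Figure D2:**
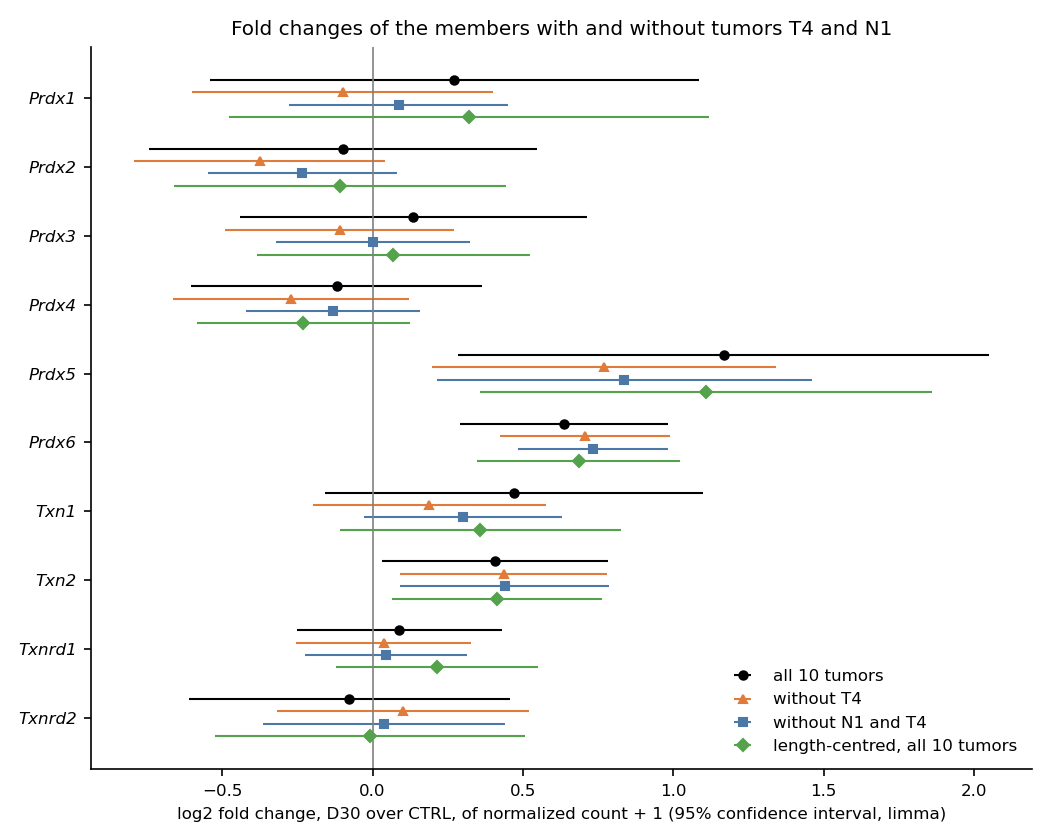
Log2 fold change, D30 over CTRL, of normalized count + 1 (horizontal axis) of each member, with its 95% confidence interval from limma, for all 10 tumors, without T4, without N1 and T4, and after centring on transcript length. The interval of Prdx6 lay above 0 in the 4 fits, at 0.29 to 0.98 with all tumors, and the interval of Prdx1 narrowed from -0.54 to 1.08 with all tumors to -0.28 to 0.45 without N1 and T4.

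The thioredoxins carry electrons from the reductases to the peroxiredoxins. Txn1, the cytosolic form, was at 7757 (N1), 5132 (N2), 6272 (N4), 4117 (N5) and 5811 (N6) normalized counts in CTRL tumors. The D30 tumors had 6694 (T1), 5962 (T2), 17169 (T4), 5892 (T5) and 7539 (T7). Only T4 was outside the CTRL range. Its fold change on the log2 scale was 0.47 (SE 0.291, adjusted p = 0.44, limma), and 0.19 without T4 (adjusted p = 0.573, limma).

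Txn2, the mitochondrial form, was higher in D30 tumors on average, with a single CTRL tumor among them. Normalized counts were 3403 (N1), 3177 (N2), 4057 (N4), 2959 (N5) and 3358 (N6) in CTRL tumors. They were 4074 (T1), 4490.2 (T2), 4126 (T4), 3952 (T5) and 5993 (T7) in D30 tumors. N4 lay above T5, and every other CTRL tumor was below all D30 tumors. Means were 3391 ± 411 and 4527 ± 844 (SD, n = 5 each), a log2 fold change of 0.41 (95% confidence interval 0.03 to 0.78, unadjusted p = 0.0356, adjusted p = 0.249, limma). Txn2 was called in 0 of the 22 other settings, with adjusted p from 0.0686 to 0.617.

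The thioredoxin reductases are selenoproteins that pass electrons from NADPH to thioredoxin. Txnrd1, the cytosolic enzyme, was at 5586 (N1), 5449 (N2), 5496 (N4), 5469 (N5) and 5323 (N6) normalized counts in CTRL tumors, the narrowest group of any member relative to its mean, which was 5465 ± 95 (SD, n = 5). Its D30 values were 6896 (T1), 5481 (T2), 6733 (T4), 5082 (T5) and 5134 (T7). T1 and T4 were above the CTRL range and T5 and T7 below it, so that the D30 tumors spread to both sides with a mean of 5865 ± 882 (SD, n = 5). The log2 fold change was 0.09 (95% confidence interval -0.25 to 0.43, adjusted p = 0.822, limma) and was -0.13 with library-size scaling.

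Txnrd2, the mitochondrial reductase, was the scarcest member, with 156 to 441 recovered reads per tumor. It was at 262 (N1), 319 (N2), 374 (N4), 300.1 (N5) and 318 (N6) normalized counts in CTRL tumors. The D30 tumors had 285 (T1), 300.1 (T2), 180.4 (T4), 412 (T5) and 359 (T7). T4, the highest tumor for 5 other members, was the lowest for Txnrd2. For Txnrd2 the log2 fold change was -0.08 (95% confidence interval -0.61 to 0.46, adjusted p = 0.909, limma) and was 0.10 without T4. Of close copies of the members, only Txn-ps1, Prdx6b, Prdx6-ps2 and Prdx2-rs3 were looked up. They took almost no reads, with at most 1.16 normalized counts in Txn-ps1, at most 0.856 in Prdx6b and 0 in Prdx6-ps2 and Prdx2-rs3. Copies of the other members were not looked up.

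Levels between genes were compared per kilobase of exon. In CTRL tumors the order of mean levels, from high to low, was Prdx1, Prdx2, Txn1, Prdx5, Prdx3, Prdx4, Prdx6, Txn2, Txnrd1 and Txnrd2. Prdx1 stood at 8975 ± 3264 and Txnrd2 at 71.5 ± 9.16 normalized counts per kilobase (SD, n = 5 each). The ranges of neighbours in this order overlapped except at 3 steps, from Txn1 to Prdx5, from Prdx6 to Txn2 and from Txnrd1 to Txnrd2. In D30 tumors Prdx6 moved from rank 7 to rank 5, above Prdx3 and Prdx4, with 1844 ± 249 normalized counts per kilobase against 1179 ± 83.7 in CTRL tumors. Txn1 and Prdx2 also changed places on this scale. With the length of the principal mRNA in place of all exons, Prdx4 and Prdx6 ranked above Txn2, Txnrd1 and Prdx3, and in D30 tumors Prdx2 kept rank 2 while Txn1 went from rank 3 to rank 4, behind Prdx5, so that the order depended on the length used. These ranks were of means that include T4. By the D30 median per kilobase of principal mRNA, Txn1, at 6370 normalized counts, was ahead of Prdx5, at 5665.

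The share of each peroxiredoxin in the family sum of a tumor does not depend on how tumors are scaled against each other. These shares were computed per kilobase of exon and are a description, with no test. They are not independent, since a higher share of Prdx5 in a tumor lowers the shares of the others. The lower shares of Prdx2 and Prdx4 below are therefore not results apart from that of Prdx5. The share of Prdx2 also carries the uncertainty from Junb reads given above. The counts of Prdx2, Prdx4 and Prdx5 themselves overlapped between the groups. The share of Prdx2 was lower in every D30 tumor than in every CTRL tumor. It was 27.2% (N1), 30.1% (N2), 24.9% (N4), 28.5% (N5) and 26.9% (N6) in CTRL tumors. It was 20.7% (T1), 18.8% (T2), 18.6% (T4), 22.1% (T5) and 22.2% (T7) in D30 tumors. The means were 27.5% ± 1.94 and 20.5% ± 1.74 (SD, n = 5 each), and T4, which stood apart in the counts of Prdx2, lay with the other D30 tumors in this share.

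The share of Prdx5 was higher in every D30 tumor. It was 7.96% (N1), 10.7% (N2), 11.9% (N4), 9.13% (N5) and 10.2% (N6) in CTRL tumors. It was 13.7% (T1), 13.5% (T2), 22.4% (T4), 28.5% (T5) and 14.6% (T7) in D30 tumors. T1, whose Prdx5 count was inside the CTRL range, was thus outside it as a share. The share of Prdx4 did not overlap either, at 6.08% to 7.44% in CTRL and 3.13% to 6.03% in D30 tumors, although the gap between N4 and T1 was narrow. Prdx1 made up 42.9% ± 3.39 of the sum in CTRL and 41.6% ± 6.83 in D30 tumors (SD, n = 5 each), and its groups overlapped, as did those of Prdx3. The share of Prdx6 was 4.23% to 6.72% in CTRL and 8.58% to 10.3% in D30 tumors other than T4, where it was 2.53%. Within the pairs, Txn1 made up 87% ± 1.99 of both thioredoxins in CTRL and 86.9% ± 4.37 in D30 tumors, and Txnrd1 made up 91.5% ± 1.04 and 92% ± 2.96 of both reductases (SD, n = 5 each).

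**Figure D3:**
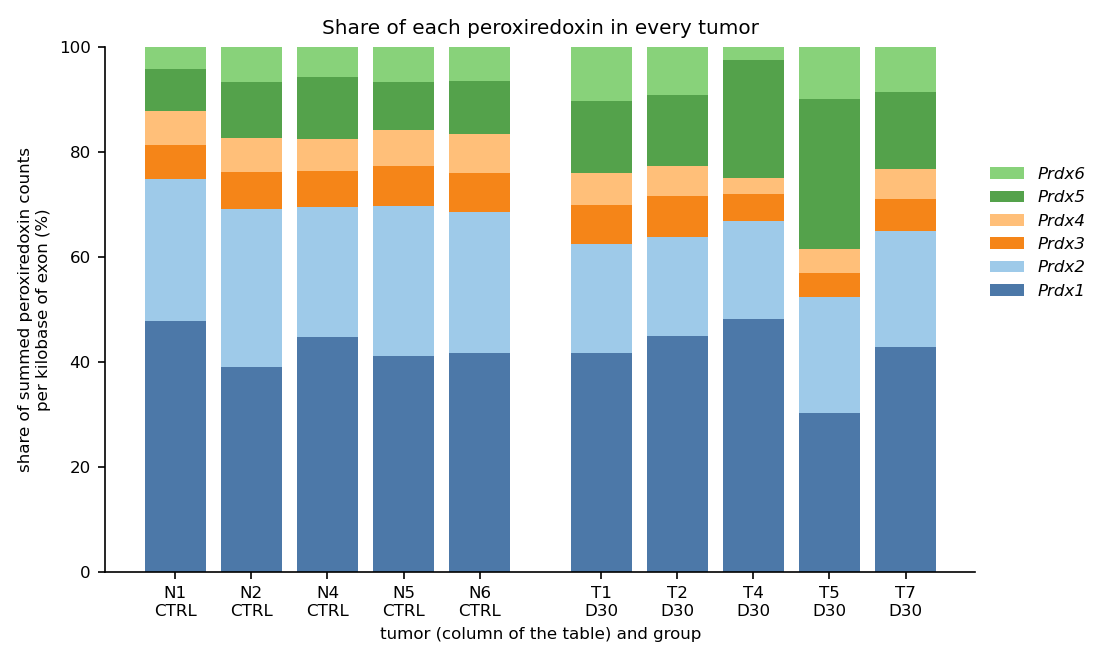
Share of each peroxiredoxin in the summed normalized counts per kilobase of exon of Prdx1 to Prdx6 (vertical axis, percent), with 1 stacked bar per tumor. Prdx2 held 24.9% to 30.1% in CTRL and 18.6% to 22.2% in D30 tumors, and Prdx5 held 7.96% to 11.9% and 13.5% to 28.5%.

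The balance of mitochondrial and cytosolic members differed between the groups by less than the spread of the tumors. The mean log2 of Prdx3, Txn2 and Txnrd2 minus that of Prdx1, Prdx2, Txn1 and Txnrd1 was -3.06 ± 0.22 in CTRL and -3.08 ± 0.53 in D30 tumors (SD, n = 5 each). T4 had the lowest value, -4.01, and N1 the next, -3.44. Without T4 the difference of the means was 0.20, against -0.028 with all tumors.

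T4 and N1 moved many members together, and transcript length moved with that pattern in T4. For each tumor, differences from the median of the other tumors were taken on the log2 scale for genes whose mean reached 100 normalized counts. In T4 the median over 2051 genes with a principal mRNA under 1500 bases was 0.91, and over 3820 genes of 4000 bases or more it was -0.57. In N1 the same medians were 0.20 and -0.13. Prdx4, with a principal mRNA of 990 bases, was at 0.75 in T4, below the median of its length class by 0.16. Prdx1, with 2294 bases, was at 1.95 in T4, 1.74 above its class, and Prdx5, with 1262 bases, was at 2.49, 1.57 above its class. Prdx2 stood 0.99 above its class, Txn1 0.61, Txnrd1 0.47 and Prdx3 0.27. Prdx6 stood 0.044 above its class, Txn2 stood 0.14 below it, and Txnrd2 stood 0.65 below its class.

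**Figure D4:**
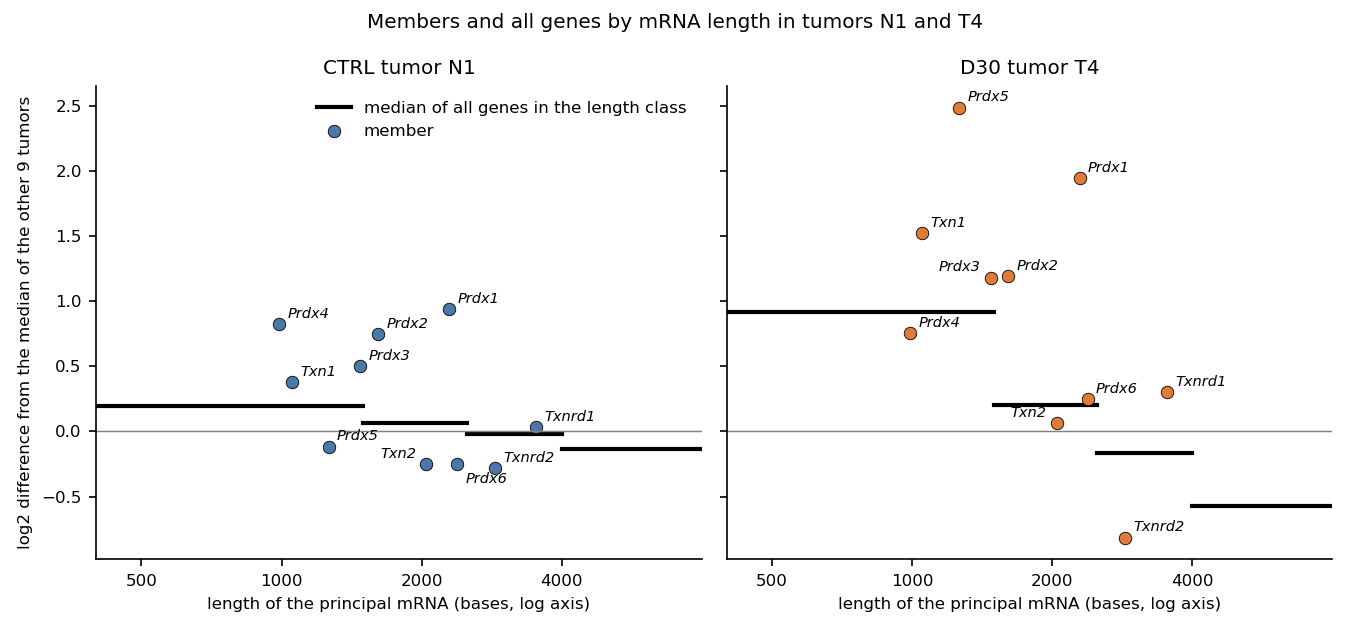
Log2 difference of each member from its median over the other tumors (vertical axis) against the length of its principal mRNA (bases, log axis) in CTRL tumor N1 and D30 tumor T4; points are members and black lines are the medians of all genes in 4 length classes. In T4 the class medians ran from 0.91 to -0.57 and Prdx5, at 2.49, and Prdx1, at 1.95, lay highest above them.

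When the median of each of 20 length bins was set to 0 in every tumor, Prdx6 had a log2 fold change of 0.69 (adjusted p = 0.0319, limma), where 3.24% of all genes were called. Prdx5 had 1.11 (adjusted p = 0.113, limma), and the other 8 members also stayed above the threshold. The 8 macrophage markers summed highest in T4, at 74717 normalized counts, and next in N1, at 63715, against 17211 to 47534 elsewhere. Lyz2, C1qb and Cd14 were highest in T4 and next in N1, with Lyz2 at 46217 and 30899 against 2716 to 17584 elsewhere. Cd68 was highest in T4, Adgre1 and Mrc1 in N1 and C1qa in N2, while Csf1r was lowest in T4, at 693. The part of macrophages and of the cells that hold the Y-linked transcripts of T4 in the high values of N1 and T4 was not tested.

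Among 14 partners and regulators, 2 were called by limma, 1 higher and 1 lower, and 12 were not, with a median log2 fold change of 0.09. The share called over all genes was 2.76%, against which the counts in this and the following lists stand. Txnip, an arrestin-like protein that binds and inhibits thioredoxin and is a classic glucose-induced gene, was at 11722 (N1), 6308 (N2), 9014 (N4), 8294 (N5) and 8492 (N6) normalized counts in CTRL tumors. In D30 tumors it was at 14448 (T1), 25311 (T2), 45443 (T4), 43387 (T5) and 21242 (T7). Every D30 tumor was above every CTRL tumor. Txnip rose by 1.67 on the log2 scale (SE 0.307, adjusted p = 0.0123, limma) and was called in all 22 other settings. Thioredoxin itself, Txn1, had the values given above and was not called in any of them.

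Sesn3 encodes a sestrin, a stress-induced protein linked to the recovery of overoxidized peroxiredoxins. It was at 1838 (N1), 2167 (N2), 1291 (N4), 2311 (N5) and 1871 (N6) normalized counts in CTRL tumors. In D30 tumors it was at 678 (T1), 899 (T2), 534 (T4), 596 (T5) and 608 (T7). No tumor crossed between the groups. Sesn3 fell by 1.51 on the log2 scale (SE 0.211, adjusted p = 0.00282, limma) and was called in all 22 other settings. Sesn1 and Sesn2 were not called. Srxn1, sulfiredoxin, which reduces overoxidized peroxiredoxins, was at 1156 to 1563 normalized counts in CTRL and 868 to 1248 in D30 tumors (log2 fold change -0.33, adjusted p = 0.345, limma). Gsr, glutathione reductase, was at 7535 to 14722 in CTRL and 6188 to 11521 in D30 tumors (log2 fold change -0.24, adjusted p = 0.628, limma).

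Of 7 thioredoxin-dependent reductases none was called by limma, 1 had an unadjusted p under 0.05, and the median log2 fold change was 0.07. Msra, which repairs oxidized methionine, was nearest to the threshold and did not overlap between groups, with 228 to 350.3 normalized counts in CTRL and 410.2 to 610.1 in D30 tumors (log2 fold change 0.82, adjusted p = 0.0651, limma). It was called in 5 of 22 other settings, among them DESeq2 (adjusted p = 0.00626) and limma without T4 (adjusted p = 0.0354). Msrb2, the mitochondrial enzyme for the other form of oxidized methionine, was scarce, at 18.8 to 32.6 and 0 to 27.8 normalized counts (adjusted p = 0.417, limma). Of 21 thioredoxin-domain proteins tested, 1 was called by limma, close to the 2.76% over all genes, with a median of 0.05. This was Ero1l, the oxidase of the endoplasmic reticulum that makes the hydrogen peroxide on which Prdx4 acts. It was at 1906 to 5832 normalized counts in CTRL and 6816 to 35011 in D30 tumors, with the highest value in T5 (log2 fold change 1.91, adjusted p = 0.035, limma). Without T5 the log2 fold change was 1.46 (adjusted p = 0.0204, limma). It was called in 14 of the 21 other settings that gave it an adjusted p. Among the settings where it missed the threshold were those without N1, N2, N5, N6, T2 or T7 (adjusted p from 0.0507 to 0.104, limma).

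Of 12 genes that supply NADPH, 1 was called by limma, again beside 2.76% over all genes, with a median log2 fold change of 0.23. Mthfd2, a mitochondrial enzyme of folate metabolism that can make NADPH, was at 599 to 1015 normalized counts in CTRL and 1235 to 2189.8 in D30 tumors (log2 fold change 0.93, adjusted p = 0.038, limma), and was called in 12 of 22 other settings. It missed the threshold with both other scalings and when any tumor except T2 or T4 was left out (adjusted p from 0.0552 to 0.113, limma). Nnt, which makes NADPH for the mitochondrial peroxiredoxins and is mutated in some C57BL/6 substrains, was chosen after its values were seen. It was at only 4.28 to 13.3 normalized counts in CTRL and 2.13 to 26.6 in D30 tumors. Of 10 other peroxide-removing and superoxide-removing enzymes none was called by limma and 3 had an unadjusted p under 0.05, with a median of 0.15. Sod1, superoxide dismutase of the cytosol, was at 9050.1 to 11779.6 normalized counts in CTRL and 11146 to 20736 in D30 tumors (log2 fold change 0.72, adjusted p = 0.0767, limma). It was called in 4 of 22 other settings, by DESeq2 (adjusted p = 0.0104) and by limma without T1 (adjusted p = 0.0296), without T4 (adjusted p = 0.0487) and without N1 and T4 (adjusted p = 0.0471). Cat, catalase, was at 2696 to 5096 in CTRL and 2386 to 3169 in D30 tumors (log2 fold change -0.53, adjusted p = 0.17, limma).

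NRF2, encoded by Nfe2l2, is the transcription factor that drives many of these genes together with small Maf proteins. Of 14 genes of its axis 2 were called by limma, 1 higher and 1 lower, beside 2.76% over all genes, with a median log2 fold change of 0.05. Mafk, a small Maf protein, was at 1184 to 1540.4 normalized counts in CTRL and 2464 to 4648 in D30 tumors (log2 fold change 1.14, adjusted p = 0.00863, limma). Gclc, the catalytic subunit of the enzyme that starts glutathione synthesis, was at 13048 (N1), 14989 (N2), 10848 (N4), 19414 (N5) and 13596 (N6) normalized counts in CTRL tumors. In D30 tumors it was at 6842 (T1), 6805 (T2), 7555 (T4), 7990.1 (T5) and 6315 (T7). The groups were well apart and the D30 tumors close together. Gclc fell by 0.996 on the log2 scale (SE 0.185, adjusted p = 0.0127, limma) and missed the threshold only without N2 (adjusted p = 0.0501, limma). Of 10 genes for making selenoproteins, which the reductases need, none was called by limma and 1 had an unadjusted p under 0.05, with a median of 0.14. Sephs1 was at 2386 to 3268 normalized counts in CTRL and 1221 to 2583 in D30 tumors (adjusted p = 0.145, limma), and was called in 4 of 22 other settings, among them limma without T4 (adjusted p = 0.018). Selenok was at 2079 to 4438 and 2466 to 12056, with T4 highest. Its log2 fold change was 0.71 (adjusted p = 0.363, limma) and 0.34 without T4 (adjusted p = 0.437, limma).

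**Figure D5:**
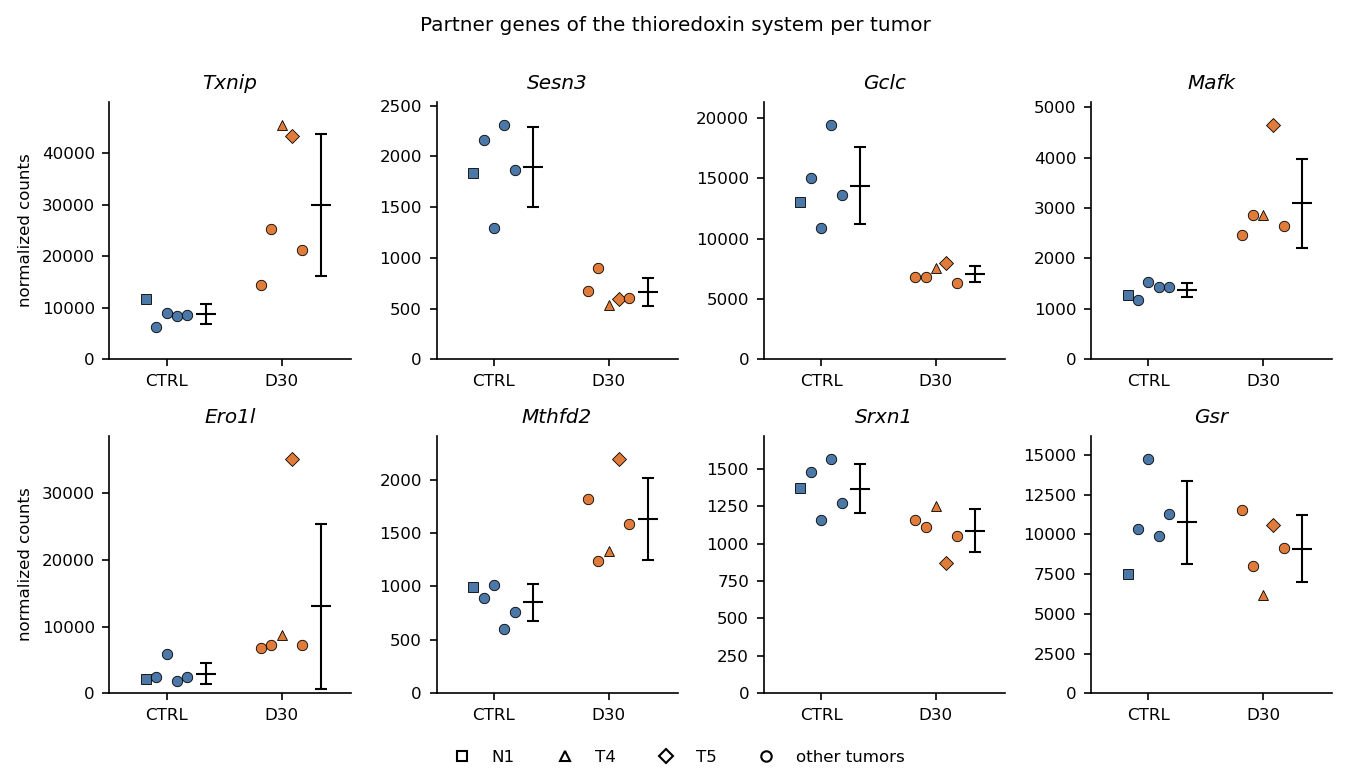
Normalized counts of 8 partner genes (vertical axes, each from 0) in every CTRL (blue) and D30 (orange) tumor, with the mean ± SD of 5 tumors; squares mark N1, triangles T4 and diamonds T5. Txnip, Mafk, Ero1l and Mthfd2 were higher and Sesn3 and Gclc lower in every D30 tumor than in every CTRL tumor, while Srxn1 and Gsr overlapped.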

How the data were processed

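Per the labels and the study's methods, the authors prepared strand-specific libraries, sequenced them in pairs, trimmed them (Trim Galore) and aligned them with STAR 2.7.0e. The processing notes name GRCm39 and the methods hg38, and RSEM is named among the software, without its settings. What the authors deposited is a normalized signal, the reads of a gene divided by the DESeq2 size factor of the tumor. All values came out whole (tolerance 0.01) once divided by the tumor's step, which gave back the reads. N columns were taken as CTRL and T columns, by elimination, as D30.

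Genes whose mean reached 1 normalized count were tested with limma 3.58.1 (R 4.3.3) on log2(value + 1) with a mean-variance trend and Benjamini-Hochberg adjustment over all 24560 genes, after a check on simulated data. Fold changes on this scale understate those of low genes. edgeR 4.0.16 and DESeq2 1.42.0 on recovered reads, other scalings, pseudocounts, filters and left-out tumors were alternatives. Length-centring, shares per kilobase of principal mRNA and the removal of N1 with T4 or T4 with T5 were chosen after seeing the data. Symbols, positions and lengths came from GENCODE M21 (GRCm38), which named 94.1% of identifiers. Where several identifiers shared a symbol, the most abundant was kept.

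The members and lists were chosen with earlier results of these data known. Named partners were those called, otherwise the 2 smallest p values of each list, and Srxn1, Txnip and Gsr in any case; for the member with the smallest p, the 3 genes most like it were named. Tumors are biological replicates by the series' design, and labels do not give each tumor's sex. The study's methods state that male and female mice were used in equal numbers, whereas Y-linked transcripts were found only in T4. Some items are not reported here.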

Additional observations from a re-analysis of the deposited data

Results flagged for a closer look

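In 7 of the 20 groups of 5 tumors, 2 for each of the 10 members, the highest tumor lay far from the other 4 by Dixon's test (critical value 0.71). The 10 members were measured in the same tumors, so these groups are not independent and the count was not set against a chance rate. T4 was such a tumor for Prdx1 (87887 normalized counts, a gap of 0.857 of the range of the group), Prdx2 (33915, 0.803), Prdx3 (4505, 0.751) and Txn1 (17169, 0.854). N1 was such a tumor for Prdx2 (24909, 0.756) and Prdx4 (4148, 0.728), and T7 for Txn2 (5993, 0.736). T4 or N1 was the tumor in 6 of these 7 groups.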

How the results depend on the processing

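No paired analysis was possible because the columns do not carry the labels' replicate numbers. Of 527 comparisons of a gene's log2 fold change with an alternative, 470 kept their direction and side of the threshold, 18 lost and 22 gained a call in the same direction, and 17 turned. All turns were in members that were not called. Without T4 the log2 fold change was -0.10 for Prdx1, -0.11 for Prdx3 and 0.10 for Txnrd2. Without T4 and T5, chosen after seeing the data, it was -0.010 for Prdx1 and 0.0025 for Txnrd2, and without N1 and T4 0.038 for Txnrd2. Prdx2 turned to 0.0078 with DESeq2, to 0.021 with edgeR and TMM, to 0.0078 with edgeR and DESeq2's size factors, and to 0.045 without N1, 0.032 without T1 and 0.028 without T2. Prdx4 turned to 0.020 without N1. Library-size scaling gave -0.088 for Prdx3 and -0.13 for Txnrd1, and upper-quartile scaling -0.026 and -0.072. When 1 tumor was left out, the log2 fold change ran from -0.10 to 0.46 for Prdx1, -0.38 to 0.045 for Prdx2, -0.11 to 0.28 for Prdx3, -0.27 to 0.020 for Prdx4 and -0.20 to 0.10 for Txnrd2. Members called numbered 2 with DESeq2 and 1 with either edgeR fit, with a minimum mean of 10, without N1 and T4, without T4 and T5, and after length-centring; leaving out 1 tumor gave 0 to 1, the 1 without T4. Over all genes 678 were called, with 344 higher and 334 lower, against 1858 with DESeq2, 1584 without N1 and T4, 2418 without T4 and T5, and 279 (without N2) to 1573 (without T4) when 1 tumor was left out; calls also fell to 340 without N5, 332 without N6 and 433 without T7. The share of higher calls was 50.7%, against 27.7% with library-size scaling, 35.6% with upper-quartile scaling and 64.6% with edgeR and TMM. The cause was not tested. The shares and the mitochondrial balance moved by less than 1 SD in each alternative run, but not always by less than the SD of the CTRL tumors. Without T4 the difference in mitochondrial balance turned positive, from -0.028 with all tumors, where the SD was 0.22 in CTRL and 0.53 in D30 tumors. The share of Prdx6 no longer overlapped between the groups once T4, at 2.53%, was left out. Depth limits Txnrd2 most, at 156 to 441 reads per tumor.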
